A study of Drosophila melanogaster with 3 samples.

Results

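The peaks described here are reproducible in place but weak. They are 4663 peaks of the CoRest protein that recur in every replicate and were left off the authors' list of reproducible peaks. A peak was taken from the pooled list of 30000 when its interval was absent from the list thresholded on reproducibility (irreproducible discovery rate, IDR; 8721 peaks) and its summit lay within 100 bp of a summit in the full list of each of 3 replicates. The peaks were thus selected on measured values, namely their presence in 4 lists, and make up 15.5% of the pooled list and 22.0% of the 21232 pooled peaks whose interval was absent from the thresholded list. The other 16569 of those are called non-recurrent below. The assay was chromatin immunoprecipitation sequencing (ChIP-seq) with an anti-GFP antibody on whole Drosophila melanogaster embryos aged 0 to 24 h, males and females pooled. All embryos came from 1 transgenic line that stably expresses CoRest with GFP at its C-terminal end, and the 3 biological replicates form 1 group with no second genotype, treatment or time. Because whole embryos were used, a weak peak in all cells and a strong peak in few cells cannot be told apart. Only peak lists were analysed, so the sequencing depth is unknown and binding at single peaks was not tested.

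CoRest is a scaffold: it ties a histone H3 lysine 4 demethylase, Su(var)3-3 in the fly, to the histone deacetylase HDAC1, and is brought to chromatin by DNA-binding partners. In the fly its known partners include the zinc finger repressors ttk and chn, and its mammalian counterpart is known for keeping neuronal genes silent outside neurons. Peak callers rank sites by strength, and a threshold on reproducibility keeps the head of that ranking, so sites below it can recur in place while their order differs between replicates.

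Sequence around 5 of the summits is given as examples. Some were chosen for a motif that they hold, so the 5 do not stand for all sites. The first is the best-ranked recurrent peak, in an intron of Cyp1 (a cyclophilin, which isomerises prolines). The next is a high-ranked one at a promoter with no thresholded peak, that of Grp170 (a chaperone of the endoplasmic reticulum), which follows TM4SF in rank. Then come an intron peak over 2 kb from any start site, in Tet (a DNA and RNA dioxygenase), which follows a peak in CG5966 in rank, and promoter peaks that hold a DRE and a Motif 1 core, at Rpn11 (the deubiquitinase of the proteasome lid) and at CG42671. Each was the best-ranked of its kind among peaks on 5 of the arms with at least 100 bases free of untranslated sequence around the summit. Capitals mark the DRE (TATCGATA, bound by DREF), the BEAF-32 core outside a DRE (CGATA), the Motif 1 core (GGTCACAC, bound by M1BP) and the GAGA core (GAGAGA, bound by Trl), or their reverse complements. The letters are the plus strand of the RefSeq Release 6 assembly (dm6), 100 bases on each side of the summit without any untranslated region.
Cyp1 intron, chrX:16319191-16319391 (plus strand): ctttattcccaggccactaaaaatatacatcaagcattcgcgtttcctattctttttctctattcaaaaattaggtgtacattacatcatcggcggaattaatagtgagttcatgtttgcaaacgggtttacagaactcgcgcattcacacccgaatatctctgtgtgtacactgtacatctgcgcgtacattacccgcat
Grp170 promoter, chrX:2275069-2275253 (plus strand): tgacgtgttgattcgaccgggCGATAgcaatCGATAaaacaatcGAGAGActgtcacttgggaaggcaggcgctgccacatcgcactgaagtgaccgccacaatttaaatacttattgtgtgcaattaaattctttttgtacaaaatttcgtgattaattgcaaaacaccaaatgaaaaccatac
Tet intron, chr3L:2851062-2851262 (plus strand): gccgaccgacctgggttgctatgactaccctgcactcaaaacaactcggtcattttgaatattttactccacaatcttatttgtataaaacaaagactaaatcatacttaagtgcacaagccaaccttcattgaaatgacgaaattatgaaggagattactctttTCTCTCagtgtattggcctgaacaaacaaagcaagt
Rpn11 promoter, chr2L:5060093-5060293 (plus strand): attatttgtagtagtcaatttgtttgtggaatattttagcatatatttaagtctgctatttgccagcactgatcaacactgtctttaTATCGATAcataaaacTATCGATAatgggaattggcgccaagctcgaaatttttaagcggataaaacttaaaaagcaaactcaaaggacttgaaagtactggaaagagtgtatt
CG42671 promoter, chr3L:11214347-11214504 (plus strand): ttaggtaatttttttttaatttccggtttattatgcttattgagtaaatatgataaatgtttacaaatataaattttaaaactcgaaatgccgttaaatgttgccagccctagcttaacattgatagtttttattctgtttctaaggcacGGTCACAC
At Grp170, where the summit lay 85 bp upstream of the start site, both CGATA copies and the GAGA core stand close together to one side of the summit. The Rpn11 window holds a pair of DREs. In the Cyp1 window none of these 4 motifs was found, which says only that these letters are not in it.

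By rank, these peaks follow directly on the thresholded list. That list held exactly the 8721 pooled peaks of highest deposited signal: its weakest had a signal of 218.315 and the strongest peak outside it 218.287. Pooled ranks of the recurrent peaks ran from 8722 to 29270 with a median of 12424, and their signal from 55.9 to 218 with a median of 143. Their deposited −log10 q-values ran from 0.128 to 3.77 (lower quartile 0.947, median 1.56). In the replicates' own lists of 30000 the matched peaks had median ranks of 14369, 14256 and 13747 in replicates 1, 2 and 3. Most were weak throughout: 3407 ranked beyond 8721 in every replicate, 1065 stood within 8721 in 1 replicate, 181 in 2 and 10 in all 3. These ranks and signals describe what the rule selected and carry no test. Rpn11 shows how far the ranks can part, with 1969 in replicate 1, 23061 in replicate 2 and 9825 in replicate 3. That peak was 136 bp wide, its summit lay 202 bp from a thresholded one, and its replicate 1 match was 73 bp away. Whether the neighbouring peak bears on these ranks was not tested. The Grp170 peak was steadier, at 9432, 8156 and 9145.

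Summit distances were part of the rule and are given as a description. The median distance from the pooled summit was 6 bp in replicate 1, 30 bp in replicate 2 and 15 bp in replicate 3, and for 2465 (52.9%) all 3 distances were within 50 bp. The pooled list was called on the same 3 alignments, so it shares reads with each replicate list. Only 1.58% of the bases of the 6 chromosome arms lay within 100 bp of a summit in all 3 replicate lists. Just inside the 100 bp limit were a peak in an intron of bun, whose summit lay 100 bp from that of replicate 2, and one in an intron of Ac13E, at 100 bp in replicate 1. Just outside were peaks at the promoters of Qsox1 and Slc45-1, each missed by 1 replicate at 101 bp.

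No step was seen in recurrence at the threshold. Of the last 1000 thresholded peaks (ranks 7722 to 8721) 76.3% were found in all 3 replicates, and of the next 1000 (ranks 8722 to 9721) 71.5%. Promoter summits made up 38.3% and 37.2% of these 1000, and the mean GC content within 100 bp was 36.2% and 36.3%. Farther down, recurrence thinned out: it was 59.2% at ranks 10001 to 12500, 26.4% at ranks 15001 to 17500 and 1.84% at ranks 22501 to 25000. Of thresholded peaks, 7676 (88.0%) were found in all 3 replicates and 6 in none. Of peaks below the threshold, 7764 were found in 2 replicates, 7399 in 1 and 1406 in none. Those found in 2 were missing from replicate 1 in 2529 cases, from replicate 2 in 3152 and from replicate 3 in 2083.

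**Figure D1:**
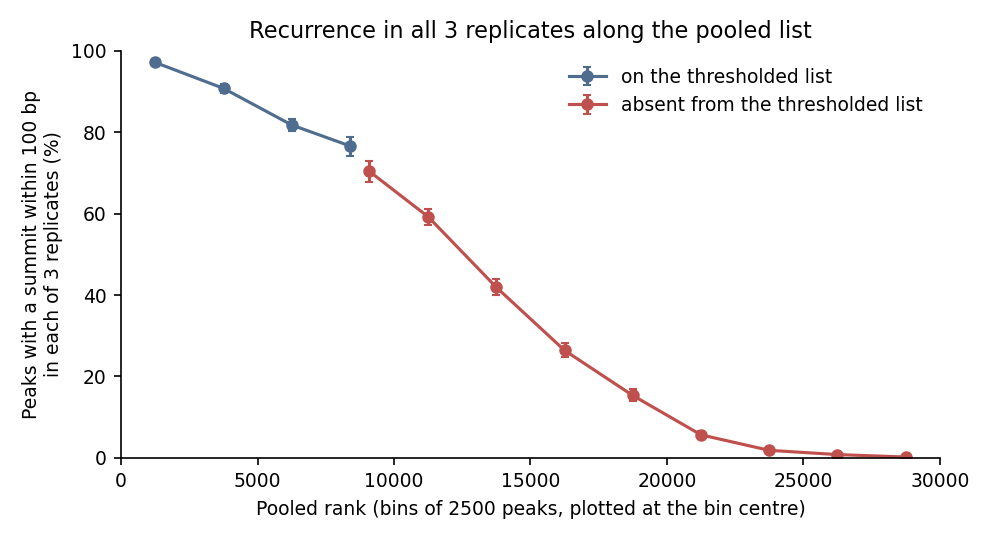
Share of pooled peaks with a summit within 100 bp in each of 3 replicates (vertical axis, %) in bins of 2500 pooled ranks (horizontal axis), for peaks on the thresholded list (blue) and absent from it (red), with exact 95% binomial intervals; the bin that the threshold splits is drawn as 2 points set slightly apart. Recurrence goes down along the whole list, from 97.1% in the first bin to 0.200% in the last, passing 76.6% and 70.3% on either side of the threshold.

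Most of the recurrent weak sites lay in introns, promoters and intergenic sequence. Introns (gene bodies outside promoters, coding and untranslated sequence) held 2173 summits (46.6%). Promoters, taken as 500 bp on each side of a protein-coding start site, held 1199 (25.7%, exact 95% interval 24.5 to 27.0), and intergenic sequence held 1149 (24.6%). Coding sequence outside promoters held 34 summits (0.729%), while 13.9% of the bases of the 6 arms are of that kind. Untranslated regions held 76 at the 3′ side and 32 at the 5′ side. Promoters cover 11.5% of the bases, introns 41.5% and intergenic sequence 27.8%. More than 2 kb from any start site lay 2197 summits (47.1%). Records of transposable elements held 27 (0.579%).

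Compared with the thresholded peaks, the recurrent weak ones were spread away from promoters. The promoter share was 25.7% against 47.5%, a difference of -21.8 percentage points (95% interval -23.4 to -20.2; Fisher's exact test, adjusted p = 7.01e-136 over 22 shares). In the replicates' own summits, taken as recurrent when both other replicates had a summit within 100 bp, it was 27.0%, 26.5% and 26.3% in replicates 1, 2 and 3. For summits within 100 bp of a thresholded one it was 47.6%, 47.4% and 46.9%. The sets do not overlap, and the paired difference was -20.7 points ± 0.167 (SD, n = 3). The recurrent sets of the 3 replicates are largely the same sites by construction, so this spread is narrow, and with 3 replicates no paired exact test can go below p = 0.25. Divergent promoters, with head-to-head start sites of opposite strand within 500 bp of the summit, held 192 recurrent weak summits (4.12%) against 1467 thresholded ones (16.8%, a ratio of 0.245, adjusted exact p = 1.49e-115). Introns held a larger share by 11.7 points, intergenic sequence by 8.39 points and sites over 2 kb from any start by 17.2 points (adjusted exact p = 4.13e-39, 2.21e-30 and 2.48e-85). Each of these 3 shares was higher in 3 of 3 replicates. Coding sequence was rare in both, at 0.729% and 0.149% (adjusted exact p = 4.33e-07). These p-values count peaks as units and cover counting error only.

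**Figure D2:**
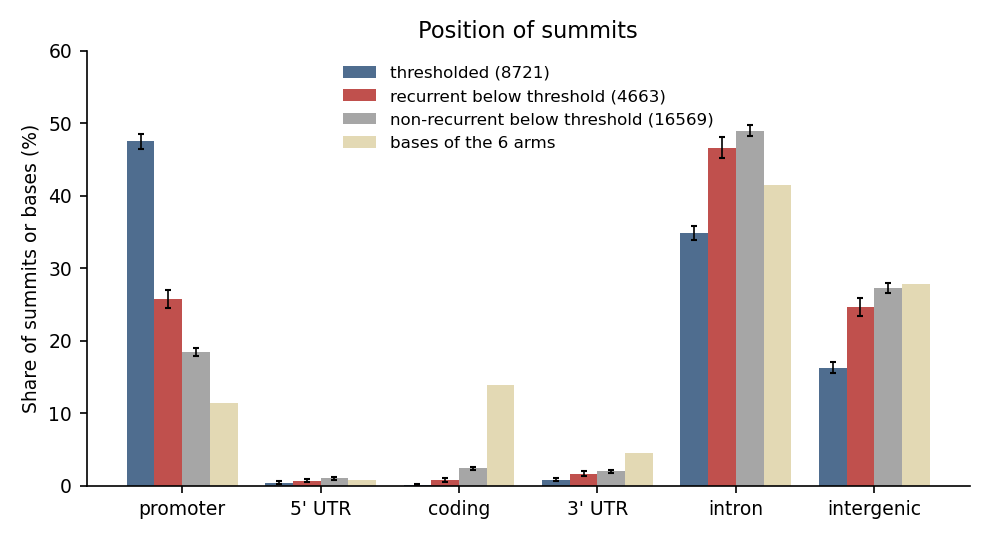
Share of summits (vertical axis, %) in 6 position classes for thresholded, recurrent below-threshold and non-recurrent below-threshold peaks, with exact 95% binomial intervals, beside the share of bases of the 6 chromosome arms in each class. The recurrent weak peaks stand between the other classes at promoters, with 25.7% against 47.5% and 18.4%, and coding sequence is nearly empty of them.

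Fewer of the weak promoter summits lay upstream of the start site. Of 1199 promoter summits 66.0% were upstream of the nearest start, with a median position of -46 bp, while 86.1% of thresholded promoter summits were upstream, with a median of -114 bp. Within 200 bp of the start, on either side, were 65.7% of the weak and 72.1% of the thresholded summits. These positions were not tested. For non-recurrent peaks the median was -46 bp and 58.8% were upstream. Of the 1199 summits, 222 lay within 500 bp of start sites of more than 1 gene and cannot be assigned to either.

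At equal rank, recurrent peaks were not more often at promoters than non-recurrent ones. Over all ranks the promoter share was 25.7% for recurrent and 18.4% for non-recurrent peaks, a difference of 7.29 points (Fisher's exact test, adjusted p = 1.22e-25; the difference has a 95% interval from 5.91 to 8.68). In the replicates' own summits the non-recurrent share was 19.6%, 23.8% and 17.3%, below the recurrent share in 3 of 3, by 6.38 points ± 3.26 (SD, n = 3). But recurrence goes with rank (medians 12424 and 21602), and so does the promoter share. Within classes of 500 pooled ranks, non-recurrent peaks weighted to the ranks of the recurrent ones had a promoter share of 28.8%, and the difference turned to -3.12 points (exact stratified test over these classes, adjusted p = 0.0134). Among the 15000 best-ranked pooled peaks it was -1.21 points (adjusted exact p = 0.513). By bins of 5000 ranks it was -0.716 points for the peaks below the threshold up to rank 10000, -2.84 at ranks 10001 to 15000, -1.63 at 15001 to 20000, -1.04 at 20001 to 25000 and 15.1 at 25001 to 30000. The last of these bins holds 25 recurrent peaks, and none of the 5 passed (adjusted exact p between 0.0897 and 0.848). In finer bins of 2500 ranks, 1 of 9 passed, at ranks 10001 to 12500, with 27.1% of recurrent and 33.6% of non-recurrent peaks (adjusted exact p = 0.00534).

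**Figure D3:**
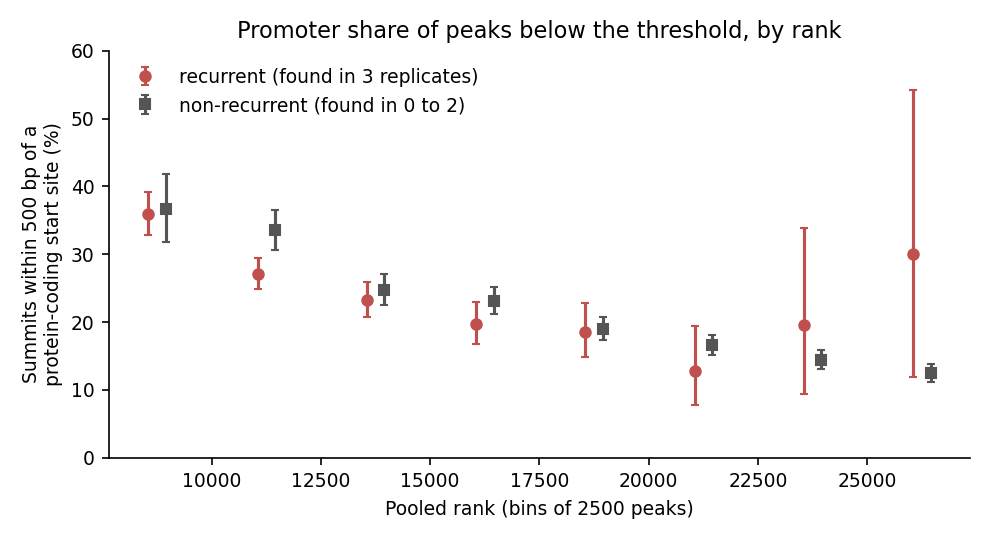
Share of summits at promoters, 500 bp or less from a start (vertical axis, %), for recurrent (red circles) and non-recurrent (grey squares) peaks below the threshold in bins of 2500 pooled ranks (horizontal axis), with exact 95% binomial intervals; the first bin starts at the threshold and the last bin, with 5 recurrent peaks, is not drawn. Both classes go down with rank, from 36.0% and 36.7% in the first bin to 12.8% and 16.6% at ranks 20001 to 22500; the recurrent share then goes up, to 19.6% over 46 peaks in the next bin and higher still over the 20 peaks of the last bin drawn.

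Divergent promoters behaved alike. Over all ranks they were more frequent among recurrent than non-recurrent peaks (4.12% against 2.40%), and introns, intergenic and coding sequence less so. Within rank classes the divergent share was 5.78% for non-recurrent peaks, higher than for the recurrent ones (difference -1.67 points, exact stratified test, adjusted p = 0.0134). The other 20 of the 22 position and motif shares did not pass within rank classes. Coding sequence, at 0.729% against 2.38% over all ranks, stood at 0.742% in non-recurrent peaks of the same ranks.

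The sites were AT-rich, with a local dip. GC content within 100 bp of the summit averaged 37.9% ± 8.45 (SD over 4663 peaks), against 41.9% at 1 kb away and 42.1% in windows tiling the genome. Promoter sites averaged 40.0% with 44.0% at 1 kb, and sites over 2 kb from any start 36.8% with 41.0%. Thresholded summits were lower at 34.4%, and non-recurrent ones higher at 40.7%. In replicates, recurrent weak summits averaged 38.1% ± 0.0503 and thresholded ones 34.5% ± 0.166 (both SD, n = 3). At the same pooled ranks non-recurrent summits averaged 38.3%.

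The DRE and the Motif 1 core stood far above the genome rate at promoters and much nearer to it elsewhere. A DRE was found in 107 windows (2.29%), against 0.564% of windows of the same length tiling the genome, and a Motif 1 core in 104 (2.23%, genome 0.430%). At promoters these shares were 7.26% and 6.92%, elsewhere 0.577% and 0.606%. Promoter summits of the other classes stood above the genome windows too, with 9.19% and 6.64% in thresholded and 4.23% and 3.24% in non-recurrent peaks. The genome windows are not limited to promoters. The BEAF-32 core outside a DRE was present in 23.2% of windows (35.4% at promoters and 19.0% elsewhere, genome 21.0%). GAGA cores were present in 10.2% (11.2% and 9.87%, genome 6.98%). The TATA box and poly-A runs stood higher outside promoters than at them. A TATA box (TATAAA) was present in 31.9% (28.7% and 33.0%, genome 21.7%), and a poly-A run (AAAAAAAA) in 15.8% (11.8% and 17.2%, genome 10.6%). Motifs were searched on both strands, and a match is a description of sequence and not of binding.

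The DRE, Motif 1 and BEAF-32 motifs were less frequent than at thresholded peaks over all sites, but did not differ by the test among promoters. The DRE stood lower over all sites (2.29% against 4.72%, adjusted exact p = 1.69e-12), as were the Motif 1 core (2.23% against 3.38%, adjusted exact p = 0.000272) and the BEAF-32 core (23.2% against 27.9%, adjusted exact p = 6.41e-09). All 3 were lower in 3 of 3 replicates. At promoters alone the DRE stood at 7.26% against 9.19%, the Motif 1 core at 6.92% against 6.64% and the BEAF-32 core at 35.4% against 38.1%, and none passed (adjusted exact p = 0.0736, 0.793 and 0.166), which does not show that they are alike. For these promoter sites, the GAGA core was more frequent than at thresholded promoters, at 11.2% against 6.76% (a ratio of 1.65, adjusted exact p = 5.99e-06). The CA repeat (CACACACA) was also more frequent there, at 5.67% against 2.58% (a ratio of 2.20, adjusted exact p = 3.81e-06). Homeobox cores (TAATTA) were less frequent, at 10.7% against 19.5% (adjusted exact p = 3.60e-12). The TATA box was too, at 28.7% against 38.1% (adjusted exact p = 1.68e-08). Non-recurrent promoter peaks held the GAGA core, CA repeat, homeobox core and TATA box in 11.7%, 6.91%, 12.6% and 26.6%. None of these differed by the test from the recurrent ones. At promoters over all ranks, the DRE, the Motif 1 core and the BEAF-32 core were more frequent at recurrent than at non-recurrent peaks. They stood at 7.26% against 4.23%, 6.92% against 3.24% and 35.4% against 28.5% (adjusted exact p = 0.000508, 5.23e-06 and 8.30e-05). Promoter windows of weak sites held 40.0% GC and those of thresholded ones 35.1%. Whether GC bears on the promoter differences was not tested, since classes of equal GC were compared over all sites only. Outside promoters the GAGA core stood at 9.87% against 9.68% in thresholded peaks (adjusted exact p = 0.983). Over all sites it stood at 10.2% against 8.29% (adjusted exact p = 0.000435). Over all sites within 10 classes of equal GC, it did not differ by the test (10.2% against 10.1%, exact stratified test, adjusted p = 0.854). Nor did the homeobox core or the TATA box there (exact stratified test, adjusted p = 0.686 and 0.901). Among the 7 motifs that passed were the CA repeat, the DRE, the Motif 1 core and the BEAF-32 core, at 5.77% against 4.50%, 2.29% against 5.32%, 2.23% against 4.27% and 23.2% against 29.6% (adjusted p = 0.00591, 1.20e-14, 1.33e-07 and 4.79e-14 in the same exact test). The poly-A run passed too, at 15.8% against 12.7% (exact stratified test, adjusted p = 2.09e-06).

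The Snail-type E-box, at promoters and elsewhere, and the proneural E-box, away from promoters, were more frequent than at thresholded peaks. In these positions both stayed below their share of windows tiling the genome, 7.87% and 8.39%. Away from promoters the proneural E-box (CAGCTG) was present at 6.55% of recurrent weak sites and 4.76% of thresholded ones (adjusted exact p = 0.00298). The Snail-type E-box (CAGGTG) stood at 5.48% and 4.13% there (adjusted exact p = 0.0155). Non-recurrent peaks away from promoters held the proneural E-box in 7.69% and the Snail-type one in 5.90%. Neither differed by the test from the recurrent ones. At promoters the Snail-type E-box stood at 7.17% against 5.14% (adjusted exact p = 0.0220), and the proneural one, at 12.6% against 10.3%, did not pass (adjusted exact p = 0.0608). In all sites within classes of equal GC neither passed (exact stratified test, adjusted p = 0.0919 and 0.691). There the proneural E-box stood lower than at thresholded peaks, at 8.11% against 9.33%, and the Snail-type one at 5.92% against 5.71%. Over all sites, the sites of Zelda (CAGGTAG, 1.03%), GATA factors (AGATAAG, 3.13%), Su(H) (GTGGGAA, or otherwise spelled GTGAGAA, 4.70%), Pho (GCCATNTT, 3.73%) and AP-1 (TGACTCA, 1.57%) and the initiator core (spelled TCAGTT in its first form and TCATTC in the next, then TCAGTC in another and TCATTT in the last, 45.5%) did not pass against thresholded peaks (adjusted exact p between 0.167 and 0.524). The initiator core did pass among promoters, at 46.5% against 42.0% (adjusted exact p = 0.0212). Within classes of equal GC it passed as well, at 45.5% against 42.9%, as did the Pho site, at 3.73% against 4.73% (exact stratified test, adjusted p = 0.0323 and 0.0462).

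Against non-recurrent peaks, 7 motifs passed the test over all ranks and none did within rank classes. The DRE was 2.05 times and the Motif 1 core 2.57 times as frequent at recurrent peaks over all ranks (adjusted exact p = 2.69e-08 and 5.80e-12). At the same ranks non-recurrent peaks held a DRE in 2.28% and a Motif 1 core in 2.20%, next to 2.29% and 2.23% (exact stratified test, adjusted p = 0.809 for both). The TATA box stood at 31.9% against 26.5% over all ranks and 32.6% at the same ranks. The poly-A run, the initiator core and the AP-1 site lost the call but kept most of the difference, from 2.01 to 1.67 points, from 2.11 to 1.56 and from -0.529 to -0.419 (exact stratified test, adjusted p = 0.182, 0.312 and 0.570). Away from promoters over all ranks, the TATA box, the poly-A run and the homeobox core were more frequent at recurrent peaks. They stood at 33.0% against 26.5%, 17.2% against 14.1% and 16.3% against 13.9% (adjusted exact p = 4.90e-13, 4.45e-05 and 0.00199). Comparisons split by position were not matched for rank.

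**Figure D4:**
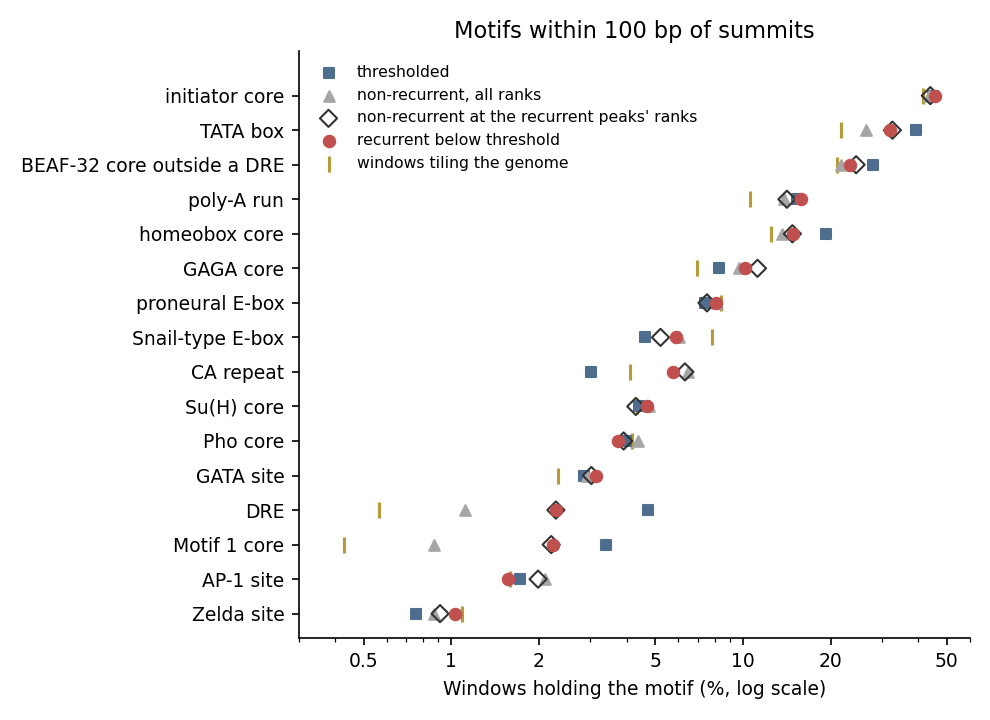
Share of windows of 100 bases on each side of the summit that hold each of 16 motifs (horizontal axis, %, log scale), for thresholded peaks (squares), recurrent below-threshold peaks (circles), non-recurrent peaks of all ranks (triangles), non-recurrent peaks weighted to the recurrent peaks' ranks (open diamonds) and windows tiling the genome (bars). For DRE and Motif 1 the open diamonds cover the circles (2.28% and 2.29%, 2.20% and 2.23%), while the triangles lie at 1.12% and 0.869%.

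Adding the recurrent weak sites brought peaks to the promoters of 861 genes that had none on the thresholded list. Of 13945 protein-coding genes, 4930 had a thresholded promoter summit and 1355 a recurrent weak one, 494 of them both. The 861 are 9.55% of the 9015 genes without a thresholded promoter summit, and raise the share of genes with a promoter summit from 35.4% to 41.5%. A further 1438 genes had neither of these and had a non-recurrent summit at the promoter. For 230 of the 861 every such summit was shared with the start of another gene, and 159 had a thresholded summit elsewhere in the gene. The best-ranked were at TM4SF (a tetraspanin, rank 8726, 153 bp upstream), Grp170 (rank 8735), the shared promoter of Hmgs and Vha44 (HMG-CoA synthase and a proton pump subunit, rank 8743), CG13931 (rank 8747) and Dnaaf5 (a dynein assembly factor, rank 8764, 129 bp upstream). The TM4SF peak ranked 8218, 14291 and 9324 in the 3 replicates, the Hmgs peak 9230, 10044 and 8012, the CG13931 peak 8568, 10891 and 10232, and the Dnaaf5 peak 11157, 5407 and 10501. Replicate 2 was the farthest from the others at TM4SF and Dnaaf5.

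Genes of the BMP pathway and the dorsal-ventral axis gained most among 21 lists. Of 24 listed genes 10 had a thresholded promoter summit, and 6 of the other 14 (42.9%, against 9.55% of all such genes) had a recurrent weak one. They were the ligands dpp and gbb, the extracellular antagonist sog, the signal transducer Mad, its inhibitor Dad, and the T-box gene Doc2. The gbb peak, shared with ytr, had pooled rank 9066 and replicate ranks of 9613, 9942 and 10919. The Dad peak lay 444 bp upstream of a start, with pooled rank 9358 and replicate ranks of 9058, 7727 and 12450. The nearest thresholded summits were 959 and 633 bp away. The genes brk, dl, sax, scw, sna, tld, tsg and zen had neither kind of summit at a promoter.

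Other signalling and patterning genes gained fewer. Over all genes without a thresholded promoter summit the share was 9.55%. In the Wnt and Hedgehog list 3 of 11 genes without a thresholded promoter summit had a recurrent weak one: the ligand Wnt4 (rank 11606, 32 bp downstream of its start), the receptor fz2 and the nuclear cofactor pygo (rank 8865, shared with rod). In the Notch list 2 of 10 had one, the ligand Delta (rank 10253, 37 bp upstream, 21615 bp from any thresholded summit) and the repressor gene E(spl)mbeta-HLH (rank 10398). Delta ranked 9388, 8272 and 19006 and E(spl)mbeta-HLH 8305, 10111 and 18055 in the 3 replicates, replicate 3 being the weakest at both. For gap, pair-rule and segment polarity genes it was 1 of 10, near the share of all genes. This was the pair-rule gene odd (rank 12534, 57 bp upstream, with a Zelda site in its window). Of proneural and neuroblast genes 1 of 13 had one, insc, an adaptor of asymmetric division (rank 9652, shared with sktl). Single replicates ranked some of these far lower. In replicate 3 Wnt4 stood at 29538 and odd at 22071, in replicate 2 insc at 26585 and in replicate 1 pygo at 19095. Ecdysone response genes had 2 of 12, the ETS factor Eip74EF (rank 11054) and the nuclear receptor Hr4 (rank 17519). For muscle and mesoderm genes it was 2 of 15, the myoblast fusion receptor sns (rank 10547, 38960 bp from any thresholded summit) and the myosin light chain Mlc2 (rank 13233). Hox cluster genes had 0 of 5, temporal identity genes 0 of 10 and germline genes 0 of 10.

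Ribosomal, proteasome, cell cycle and Polycomb lists gained some of the genes not on the thresholded list, beside 9.55% of all such genes. Of 93 ribosomal protein genes 80 had a thresholded promoter summit, and 5 of the other 13 (38.5%) had a recurrent weak one: RpS9 (rank 9002, with a Motif 1 core), RpS5b (rank 9758), RpS10a, RpS15 and RpS19b. Mitochondrial ribosomal protein genes gained 5 of 30, among them mRpL2 (rank 9430, shared with FoxK) and mRpL52 (rank 9490, shared with CG12107). Proteasome genes gained 3 of 28 (10.7%, near the share of all such genes). Among them were Prosbeta7 (rank 8768, 2 bp from its start, with a Motif 1 core) and Rpt4 (rank 8964, shared with mldr). Cell cycle and replication genes gained 2 of 7, the sliding clamp gene PCNA (rank 10939, with a DRE) and RnrL, a ribonucleotide reductase subunit (rank 11818). The PCNA peak ranked 10510, 10185 and 13445 in the replicates. Of Polycomb group genes 1 of 6 gained one, the demethylase gene Kdm2 (rank 11028), and of trithorax group and remodeller genes 0 of 6.

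The chemosensory, cuticle and synaptic lists gained few, beside 9.55% of all genes without a thresholded promoter summit. Chemosensory receptor genes had 2 of 177 (1.13%): Gr21a, part of the carbon dioxide receptor (rank 11974), and Gr97a, whose summit is shared with CG5521 (rank 11749). Cuticle protein genes had 2 of 115 (1.74%): Lcp9, shared with CG3594 (rank 10316), and TwdlP (rank 16895). Synaptic and channel genes, of which 6 of 29 had a thresholded promoter summit, had 1 of the other 23, Ddc, the dopa decarboxylase (rank 17214, with replicate ranks of 26860, 16523 and 20873). These counts are descriptions; no list was tested, and several rest on 1 or 2 genes.

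**Figure D5:**
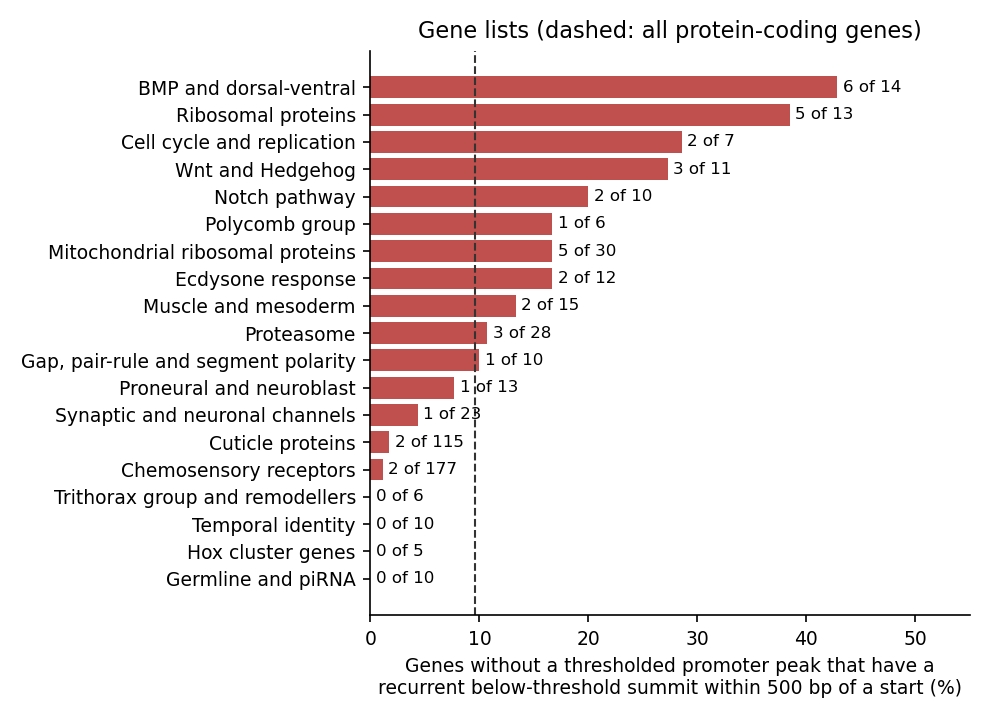
Share of the genes without a thresholded promoter summit that had a recurrent below-threshold summit within 500 bp of a start site (horizontal axis, %), for 19 gene lists with at least 5 such genes, with counts beside the bars; the dashed line is the share over all protein-coding genes. The BMP and dorsal-ventral list (6 of 14) and the ribosomal protein list (5 of 13) lie farthest above the line at 9.55%, and cuticle and chemosensory genes below it.

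The genes of CoRest and its 2 enzymes, Su(var)3-3 and HDAC1, each had a thresholded promoter summit and no recurrent weak one in or within 500 bp of the gene. Among partner genes, ttk held 3 recurrent weak summits beside 4 thresholded ones, all 3 in introns, at ranks 10979, 11181 and 12375. The last pair lay 2247 and 1648 bp from the nearest thresholded summit, the first much closer to one. The chn gene held 4 beside 5, in introns at ranks 11032, 11630, 17076 and 17384, and l(3)mbt held 1 beside 2 (rank 12689). CtBP, a corepressor gene, had 3 thresholded and no recurrent weak summit, and Lint-1 had neither.

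Long genes collected many recurrent weak sites. The gene kirre, a myoblast adhesion receptor gene of 394 kb, held 41 beside 28 thresholded summits. CG43658 held 15 beside 13, bun 14 beside 11, and the overlapping pair Glut4EF and CG46467 13 beside 4. Rbp6, an RNA-binding protein gene of 179 kb, held 11 beside 2. A total of 936 genes had a recurrent weak summit in or within 500 bp of the gene and no thresholded one, and 30 of these had at least 3. Lim3, a LIM homeodomain gene of motor neurons, led with 6, followed by CG13300, the potassium channel gene Sh, the RNA-binding protein gene bru1 and form3, a formin, with 5 each. These counts were not scaled for gene length.

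Distance to the thresholded peaks varied widely. The median from a recurrent weak summit to the nearest thresholded one was 3070 bp. It was at most 1 kb for 972 (20.8%; non-recurrent 16.8%) and over 10 kb for 924 (19.8%; non-recurrent 23.7%). No 2 pooled summits stood closer than 199 bp, and 426 of the recurrent weak intervals overlapped a thresholded interval. Of the 10 recurrent weak peaks that ranked within 8721 in all 3 replicates, 8 had a thresholded summit 200 to 218 bp away, among them those at the promoters of Nop60B and mRpS17, slgA, Gli and CG34398. The other 2, in introns of tara and tws, had it 2845 and 1393 bp away. The tara peak ranked 8300, 8220 and 7787 in the replicates and 8803 in the pooled list.

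By chromosome, the X held 995 recurrent weak peaks, or 42.3 per Mb. The large autosome arms held between 30.5 per Mb (3R) and 36.7 per Mb (3L), and chromosome 4 held 11 (8.16 per Mb). For each thresholded peak there were 0.600 recurrent weak ones on the X, 0.466 on 3R and 0.324 on chromosome 4. These differences were not tested.

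The best-ranked recurrent weak peaks, chosen by rank alone, show the mix. The first 10 comprised 5 intron peaks, 4 promoter peaks and 1 in a 3′ untranslated region. The Cyp1 intron peak (dm6, X 16319069 to 16319512, rank 8722) ranked 8534, 11320 and 13844 in the replicates. The COX7AL2 peak (a cytochrome c oxidase subunit gene; 2L 2197400 to 2197843) lay 290 bp downstream of a start site and 202 bp from a thresholded summit. The CG5966 peak lay in a 3′ untranslated region (X 5992164 to 5992607, rank 8725). The Tet intron peak (3L 2850940 to 2851383, rank 8728) was 27996 bp from the nearest start site and 844 bp from a thresholded summit. The others were at the promoters of TM4SF, Rpn11 and Nmdmc (a folate pathway dehydrogenase) and in introns of speck (an arylalkylamine acetyltransferase), slo (a calcium-activated potassium channel) and 14-3-3epsilon (a phosphoprotein adaptor). The next distal ones were in introns of chm, a MYST histone acetyltransferase (rank 8739), and ex, a Hippo pathway gene (rank 8740).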

How the data were processed

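CoRest-GFP ChIP-seq was measured in 3 biological replicates of whole embryos. Peaks were called by the authors on each replicate and on the 3 alignments together (30000 peaks each) against 1 control file on dm6, per the deposited file listings, and the thresholded list was derived from these lists. The sources used here do not state the peak caller, the aligner, the IDR threshold or the read numbers, so the depth is unknown. Ranks were taken within each list from the deposited peak signal, whose definition is likewise not stated. The −log10 q-value deposited with each peak was only described. A summit is the deposited start plus the deposited summit offset.

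Pooled peaks with the chromosome, start and end of a thresholded record counted as present in that list; 47 other pooled records shared an interval but not a summit with one, and 12 of these recurred. Genes came from Ensembl release 115, without transposable element records, and sequence from the RefSeq Release 6 assembly; peaks and genes were checked to lie within its chromosome lengths. Position classes were ranked promoter, 5′ untranslated, coding, 3′ untranslated, gene body (called intron), intergenic. Of the symbols on the 21 gene lists, 12 matched no gene. Shares were compared with Fisher's exact test, 2-sided, Benjamini-Hochberg adjusted over 22 shares per comparison with a threshold of 0.05, or over 16 motifs where promoters or GC classes were compared. Exact stratified tests (2-sided, conditional on the totals of each class) used 10 classes of GC or classes of 500 pooled ranks (Python 3.11.15, scipy 1.17.1). Tests were also run on simulated data. Alternatives were other match distances, rules for absence, promoter and motif windows, GC and rank classes, the 15000 best-ranked peaks and each replicate left out. The rank classes were chosen after seeing the data.

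Named peaks were the 10 best-ranked, the 5 best at promoters without a thresholded summit, the 5 best over 2 kb from any start, up to 2 per gene list, those in or near 8 genes of the complex and its partners, and 4 at the 100 bp limit. Other genes that complete a count, and the long genes, were chosen after their values were seen. The selected peaks, gene lists and motifs were chosen with earlier results of these data known.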

Additional observations from a re-analysis of the deposited data

How the results depend on the processing

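The number of recurrent weak peaks depended on the match distance, with 2465 at 50 bp and 7263 at 200 bp, and on asking for 2 in place of 3 replicates, with 6746 to 7815 when each replicate was left out in turn (7192 without replicate 1, 7815 without replicate 2). At 50 bp the genes gained were 448. The lower promoter share than at thresholded peaks kept its direction and call in every alternative run. The higher promoter share than at non-recurrent peaks reversed to -1.21 points among the 15000 best-ranked peaks and to -3.12 within rank classes, as did the divergent share (-1.06 and -1.67), intergenic sequence (1.12 and 1.14), sites over 2 kb from any start (1.88 and 3.03), the BEAF-32 core (-0.792 and -1.23) and the TATA box (-0.571 and -0.665). Introns ranged from -3.59 to 1.17 with each replicate left out, reversing without replicate 1, and reversed to 1.99 within rank classes. Against the same class, the BEAF-32 core stood at -1.18 outside promoters, the TATA box at -0.0501 and the poly-A run at -0.00159 within GC classes, and the poly-A run at -0.757 at promoters. Against thresholded peaks, the Motif 1 core turned to 0.286 points at promoters and 0.169 elsewhere, the BEAF-32 core to 0.228 outside promoters and the TATA box to 0.242 within GC classes. Where a split or class compares peaks of like position, GC or rank, that is its construction; the cause was not tested otherwise. Of the other single shares under an alternative, 474 stayed on the same side of the threshold, 51 lost the call and 14 gained it. Some of the 474 did not pass in either setting and changed sign. The proneural E-box against thresholded peaks, for example, went from 0.710 to -1.23 points within GC classes. Exact intervals cover counting error only, 3 replicates of 1 group limit any test over samples, and mock or input data were not analysed here.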
